A study of Mus musculus with 21 samples.

Results

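To set the 2 single stressors of the study side by side, hearts of mice given doxorubicin (DOX) and carrying no tumor were compared with hearts of mice bearing a 4T-1 breast tumor (Tb) and given normal saline. The comparison took every library of the 2 groups, 5 DOX and 6 Tb, which is 11 of the 21 libraries of the series, and the 13928 genes of 56691 whose FPKM (fragments per kb of gene scaled to depth) averaged at least 0.5 over these 11 libraries. DOX mice received 5 mg/kg intraperitoneally each week for 3 weeks. Tb mice had 4T-1 cells, a mouse mammary carcinoma line, injected under the skin. The series also holds 5 Control libraries (no tumor, saline) and 5 Tb-DOX libraries (tumor and DOX), whose levels are given beside a gene where they help to place it. The labels name 4T-1 cells as the source of every library, whereas the study describes heart tissue, and the sources used here state neither the strain nor the age of the mice. No deletion or transgene is stated for any group, and nothing says that the libraries of a group came from separate mice, so p-values measure the spread between these libraries.

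Doxorubicin is an anthracycline that intercalates into DNA, poisons topoisomerase II and is dose-limited in patients by damage to the heart. The 4T-1 line is widely used as a model of metastatic breast cancer and is known for a marked expansion of neutrophils in the blood and tissues of its host. A heart holds cardiomyocytes together with endothelial cells, fibroblasts, pericytes, resident macrophages and blood, and a bulk library counts the RNA of all of them.

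The defining markers of heart muscle were abundant in every library of the comparison. Tnnt2, cardiac troponin T, lay at 1268 to 2957 FPKM, and Myl2, the ventricular regulatory myosin light chain, at 2621 to 4587 FPKM. Keratin 5, a basal epithelial marker, was listed at 0 in all 11 libraries, and Epcam reached at most 0.330 FPKM. Totals were 14008573 to 16460372 counts in DOX and 14739757 to 18601445 counts in Tb. Mitochondrially encoded genes took 24.7% ± 2.18 of the counts in DOX (SD, n = 5) and 23.97% ± 2.30 in Tb (SD, n = 6), a difference within the spread of the libraries (two-sided exact permutation test, p = 0.602).

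Single libraries stood apart from the rest of their group in some genes, most often Tb replicate 5 and DOX replicate 4, and values without a library are given beside the results that it moves. Tb replicate 5 held Il6, an acute-phase cytokine, at 98.3 CPM (counts per 1000000, TMM-scaled) against 0.262 to 0.911 CPM in the other Tb libraries. Its log2 levels correlated at 0.939 on average with those of its group, the lowest of the 11 libraries. DOX replicate 4 held Iigp1, an interferon-inducible GTPase, at 758 CPM against 23.6 to 40.9 CPM in the other DOX libraries, and Trim63, a muscle ubiquitin ligase, at 1576 CPM against 235 to 268. In DOX replicate 5 the atrial light chain Myl7 was at 0 against 19.8 to 50.0 CPM, and the amount of atrial tissue in each library was not tested.

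**Figure D1:**
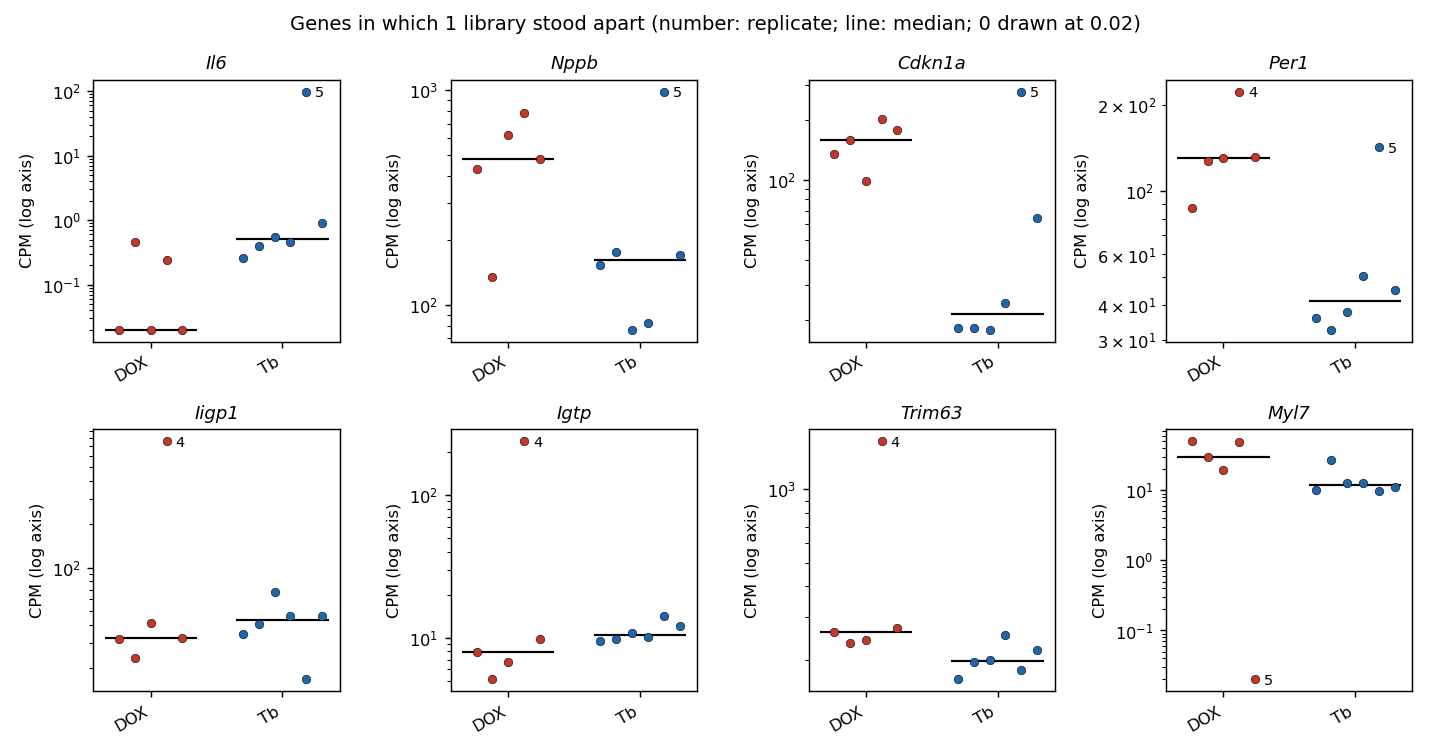
CPM per library on a log axis in DOX (5 libraries) and Tb (6 libraries) for 8 genes, with the median as a line, values at 0 drawn at 0.02 and the replicate number beside a library that stood apart. Tb replicate 5 is the highest Tb library for Il6, Nppb, Cdkn1a and Per1, DOX replicate 4 is the highest DOX library for Iigp1, Igtp, Trim63 and Per1, and DOX replicate 5 has no count for Myl7.

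The groups differed in many genes. With edgeR's quasi-likelihood test 1416 genes were called, 10.2% of those tested, where a call takes an adjusted p under 0.05 together with a log2 fold change of 1 or more in size. More of them were higher in Tb than in DOX: 1004 genes (7.21%) against 412 (2.96%). With the adjusted p alone the directions were closer to even, at 2515 genes higher in Tb (18.1%) and 2217 higher in DOX (15.9%) out of 4732 called (34.0%). Scaling by library totals in place of TMM moved the median over all genes to -0.18 on the log2 scale and the called genes to 1328 higher in Tb and 299 higher in DOX, so the share of the calls that were higher in DOX went from 29.1% to 18.4%. The groups did not overlap in 1961 genes, 14.1% of those tested. Against Control with the same rule, 1381 genes were called in DOX (9.92%), 623 higher (4.47%) and 758 lower (5.44%), and 526 in Tb (3.78%), 511 higher (3.67%) and 15 lower (0.108%). These 2 comparisons share the Control libraries with each other and the DOX or Tb libraries with the main comparison, so their values are only set side by side.

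The calls fell unevenly over the gene lists. Over all genes tested the shares to set beside each list were 7.21% higher in Tb and 2.96% higher in DOX, or 18.1% and 15.9% with the adjusted p alone. In the list of neutrophil markers 28 of 28 tested members were higher in Tb. Among chemokines and their receptors 19 of 28 were higher in Tb, in the extracellular matrix list 22 of 45 were higher in Tb and 3 in DOX, and among glucocorticoid targets 7 of 19 were higher in DOX and 2 in Tb, or 3 and 3 without DOX replicate 4. No member of 20 cardiomyocyte markers was called with all libraries, and 2 were higher in DOX without Tb replicate 5. For lists with members near 0 in DOX these counts are a description, since 11 of the 28 neutrophil markers, 16 of the 28 chemokine genes and 5 of 8 MHC class II genes reached the minimum of 0.5 FPKM in the DOX libraries alone, whereas all of them reached it in Tb.

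**Figure D2:**
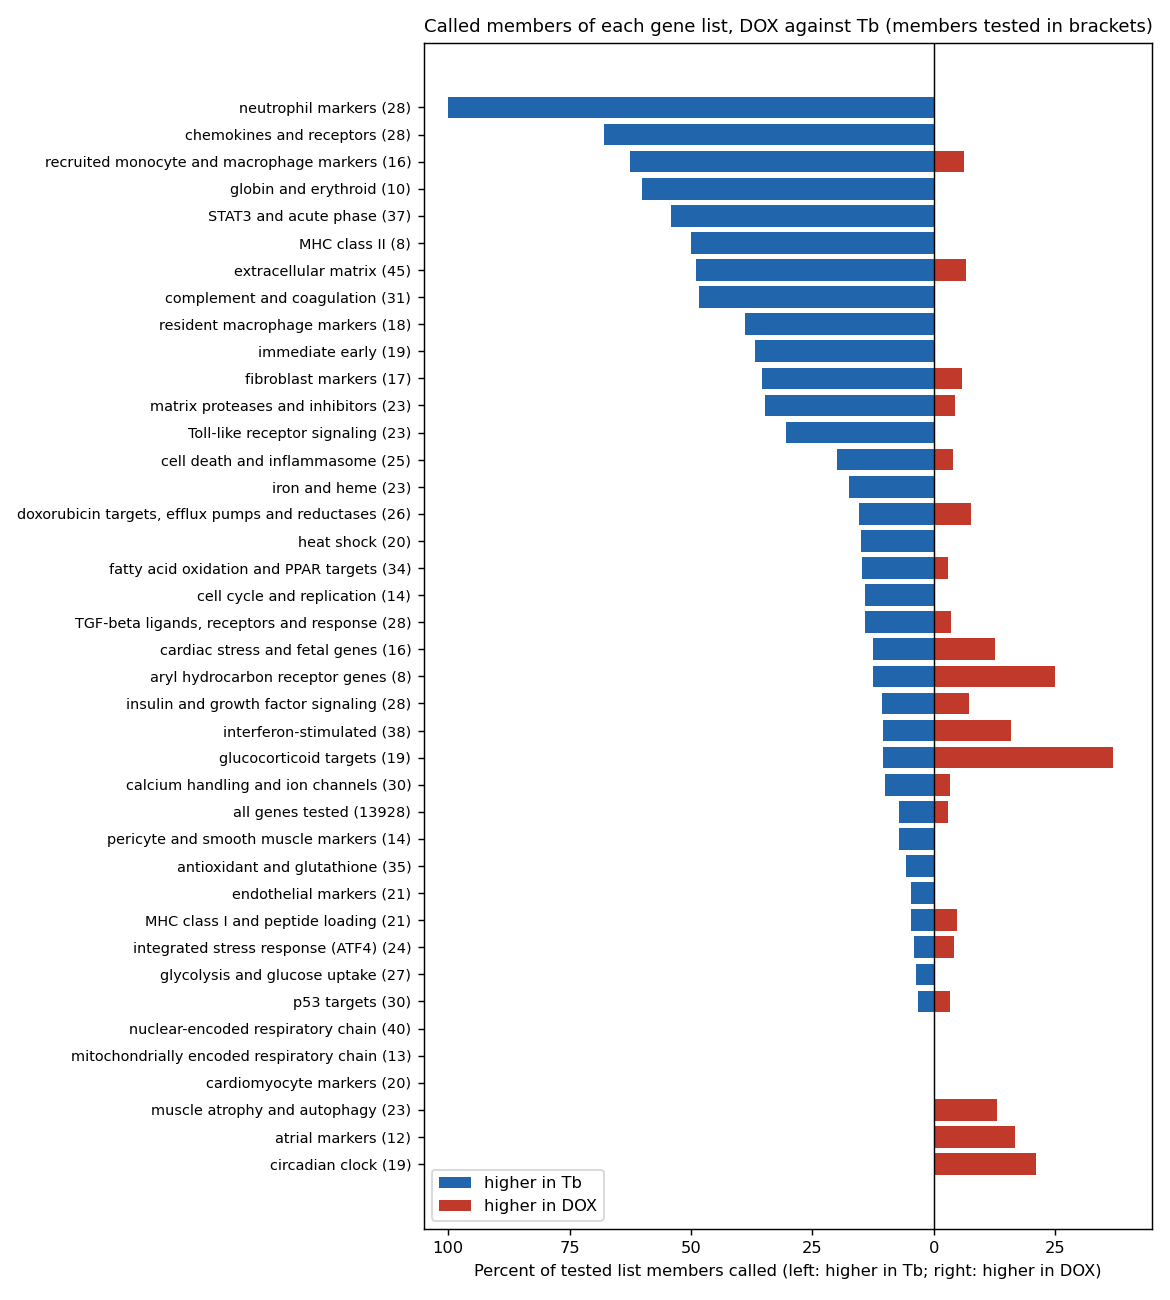
Percent of the tested members of each gene list called higher in Tb (bars to the left) or higher in DOX (bars to the right), for lists with at least 8 tested members, with the number tested in brackets. Neutrophil markers reach 28 of 28 on the Tb side, glucocorticoid targets lead the DOX side with 7 of 19 (3 of 19 without DOX replicate 4, where atrial markers lead with 2 of 12), and the bars of all genes tested stand at 7.21% and 2.96%.

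Neutrophil and other myeloid genes filled the 10 largest folds toward Tb among genes that averaged at least 2 FPKM and did not overlap between the groups. The 4 promoters shown here belong to 4 of these genes, all expressed by neutrophils. Each is the 150 bases before the annotated start in RefSeq (GRCm38.p6, gene strand), with matches to TTNCNNAA, a short form of the site bound by C/EBP factors that drive granule genes in developing granulocytes, in capitals on either strand. Ltf is at chr9:111019142-111019291 (+), Ngp at chr9:110419658-110419807 (+), S100a8 at chr3:90668921-90669070 (+) and S100a9 at chr3:90695722-90695871 (-).
Ltf: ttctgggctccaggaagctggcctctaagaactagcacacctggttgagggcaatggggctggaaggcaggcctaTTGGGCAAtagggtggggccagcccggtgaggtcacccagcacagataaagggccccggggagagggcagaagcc
Ngp: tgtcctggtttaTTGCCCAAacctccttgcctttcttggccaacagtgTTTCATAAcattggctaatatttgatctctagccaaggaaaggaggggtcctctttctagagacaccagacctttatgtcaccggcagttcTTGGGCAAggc
S100a8: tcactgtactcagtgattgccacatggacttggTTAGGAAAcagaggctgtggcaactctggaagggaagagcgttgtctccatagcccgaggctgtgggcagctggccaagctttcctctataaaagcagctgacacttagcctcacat
S100a9: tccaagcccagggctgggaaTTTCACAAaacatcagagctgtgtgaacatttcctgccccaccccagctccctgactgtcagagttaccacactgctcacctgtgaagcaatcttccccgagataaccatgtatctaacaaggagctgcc
Ngp held 3 matches, starting 138, 102 and 11 bases before the start, and the others 1 each. Of the neutrophil markers tested, 25 of 28 had a promoter entry, 14 of these genes held a match in any entry, and Camp held none. Among all 32851 promoters 22.8% held a match, a share counted per entry and not per gene, so the 2 differ in unit.

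S100a9 (chr3:90599939-90603028, coordinates as the table gives them, on GRCm39 per the submitters' processing notes) and S100a8 (chr3:90576285-90577342) encode the subunits of calprotectin, a major cytosolic protein of neutrophils. S100a9 stood at 5.65, 2.47, 25.9, 10.2 and 3.0 CPM in DOX replicates 1 to 5 and at 258 to 2180 CPM (median 900.0) in Tb (log2 fold change -6.90 ± 0.68, adjusted p = 3.52e-07). S100a8 stood at 1.28, 1.16, 13.6, 6.62 and 1.11 CPM in DOX and 142 to 1439 CPM (median 552) in Tb (log2 fold change -7.25 ± 0.74, adjusted p = 4.67e-07). Without DOX replicate 3 the log2 fold changes were -7.73 and -8.19. No DOX library came near the lowest Tb library for either gene. In Control they were lower still, S100a9 at 0.392 to 1.96 CPM, and S100a9 differed from Control by 3.61 in DOX (adjusted p = 0.00111) and 10.50 in Tb (adjusted p = 3.56e-08) on the log2 scale. Every DOX library was thus above Control and below Tb for S100a9. In bulk tissue a smaller number of cells of a type and less RNA per cell cannot be told apart.

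Some granule genes were at or near 0 in DOX and high in Tb, and others had counts in every DOX library. Lcn2, lipocalin 2 of the secondary granules, named after its values were seen, overlapped at 5.29 to 38.3 CPM in DOX and 22.5 to 381 CPM in Tb (log2 fold change -2.83 ± 0.70, adjusted p = 0.00356, and -2.22 without Tb replicate 5). Ltf, lactotransferrin of the secondary granules, stood at 0.134, 0, 0.198, 0.239 and 0 CPM in DOX and at 35.3 to 368 CPM (median 143) in Tb (log2 fold change -10.34 ± 0.73, adjusted p = 6.68e-09). Ngp, neutrophilic granule protein, was at 0.47, 0.154, 2.9, 1.44 and 0 CPM in DOX and 52 to 767 CPM (median 211) in Tb (log2 fold change -8.20 ± 0.80, adjusted p = 2.96e-07, and -9.20 without DOX replicate 3). Camp, the cathelicidin peptide, was at 0 to 0.239 CPM in DOX and 3.47 to 39.6 CPM in Tb. Ly6g, the surface antigen by which mouse neutrophils are sorted, had 1 count in all 5 DOX libraries together, in replicate 3, and 1234 in the 6 Tb libraries, an 835-fold higher level in Tb with an exact 95% interval of 149.7 to 33020 that covers counting error only. Mpo, myeloperoxidase of the primary granules made by immature cells, had no count in DOX and 7 to 517 counts per Tb library, at least 150.3-fold higher in Tb against a floor of 3 counts over the DOX group. Most of the Mpo counts came from Tb replicate 5, at 30.9 CPM against a Tb median of 2.0, where the bound was 40.3-fold without that library, and Mpo was named after its values were seen. With the 3 markers at or under 3 counts in DOX set to their bound, the list's median log2 fold change was -5.67, against -5.69 as fitted and -0.01 over all genes.

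Receptors and proteases by which neutrophils leave the marrow and enter tissue differed likewise. Csf3r, the G-CSF receptor, stood at 1.68, 1.54, 3.95, 2.39 and 1.19 CPM in DOX and 37.9 to 219 CPM (median 101) in Tb (log2 fold change -5.69 ± 0.39, adjusted p = 5.64e-09). Its DOX levels overlapped the Control range of 1.29 to 2.22 CPM, with replicate 3 the highest above it at 3.95 CPM, and it differed from Control by 0.23 in DOX (adjusted p = 0.703) and 5.93 in Tb (adjusted p = 7.79e-09). Cxcr2, the receptor for Cxcl1 and Cxcl2, stood at 0.403, 0.694, 2.83, 2.23 and 0.79 CPM in DOX and 19.1 to 147 CPM (median 61.6) in Tb (log2 fold change -5.72 ± 0.53, adjusted p = 1.79e-07). Mmp9, gelatinase B, and Mmp8, neutrophil collagenase, were higher in Tb, with log2 fold changes of -5.39 ± 0.47 and -5.35 ± 0.64 (DOX minus Tb, adjusted p = 1.2e-07 and 2.28e-06). Summed over the 28 markers, the level was 15.8 to 115 FPKM in DOX, 902 to 8642 in Tb and 3.10 to 13.8 in Control. Without Tb replicate 5, which had 8018 FPKM, 27 of 28 markers were still called and the median was -5.45. Stfa3 and Stfa2, stefins of myeloid cells, and Slfn4 and Mcemp1, also myeloid genes, filled the remaining places among the 10 largest folds toward Tb, at log2 fold changes of -7.42, -7.03, -6.81 and -6.69. The standard errors of Stfa3 and Stfa2 were 1.18 and 1.03. Without DOX replicate 3 their values were -8.43 and -7.79. In a limma voom fit with library weights neither was called (adjusted p = 0.0535 and 0.0775).

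**Figure D3:**
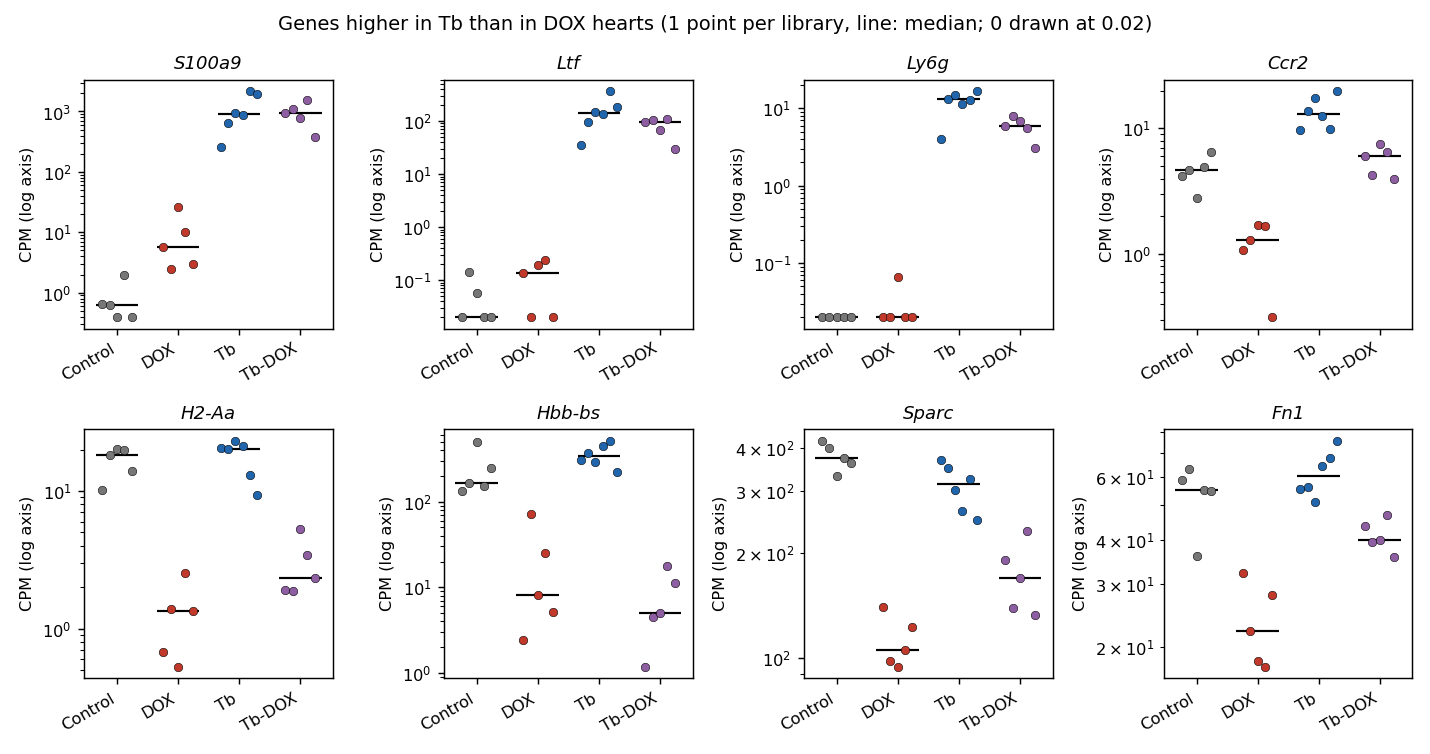
CPM per library on a log axis in Control, DOX, Tb and Tb-DOX for 8 genes called higher in Tb than in DOX, with the median as a line and values at 0 drawn at 0.02. S100a9, Ltf, Ly6g and Ccr2 are above Control in Tb, whereas H2-Aa, Hbb-bs, Sparc and Fn1 overlap the Control range in Tb and lie below it in DOX.

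Monocyte and macrophage genes were higher in Tb as well, and several of them were lower in DOX than in Control. Among 16 tested markers of recruited monocytes and macrophages 10 were higher in Tb and 1 in DOX, and among 18 resident macrophage markers 7 were higher in Tb and none in DOX (11 and 1 with the adjusted p alone, and 8 and 1 without Tb replicate 5). Ptprc, the pan-leukocyte antigen CD45, named after its values were seen, stood at 4.5, 4.16, 6.26, 5.74 and 4.19 CPM in DOX and 40.8 to 156 CPM (median 89.6) in Tb (log2 fold change -4.26 ± 0.29, adjusted p = 5.64e-09). Ccr2, which guides classical monocytes, stood at 1.07, 1.31, 1.71, 1.68 and 0.316 CPM in DOX and 9.74 to 19.8 CPM (median 13.1) in Tb (log2 fold change -3.49 ± 0.32, adjusted p = 1.58e-07). Neither gene overlapped between the groups, and against Control Ccr2 differed by -1.91 in DOX (adjusted p = 0.00015) and 1.58 in Tb (adjusted p = 0.000522). Plac8, a monocyte and granulocyte gene, was at 0 to 0.479 CPM in DOX and 2.94 to 23.8 in Tb.

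The resident macrophage genes Csf1r, Adgre1, Pf4 and Cbr2 followed another order, with Tb near Control and DOX below it. Of the 18 resident markers tested, 11 were not called between DOX and Tb. The list's median log2 fold changes against Control were -0.84 in DOX and 0.19 in Tb. Csf1r, the receptor for the macrophage growth factor M-CSF, stood at 10.2, 9.79, 10.4, 9.49 and 7.58 CPM in DOX and 21.1 to 35.4 CPM (median 29.1) in Tb (log2 fold change -1.58 ± 0.15, adjusted p = 3.03e-07). Adgre1, which encodes F4/80, stood at 1.88, 1.46, 1.58, 0.798 and 0.869 CPM in DOX and 4.54 to 8.2 CPM (median 5.65) in Tb (log2 fold change -2.18 ± 0.25, adjusted p = 1.41e-06). Every DOX library was under every Tb library for both. Csf1r differed from Control by -1.21 in DOX (adjusted p = 1.58e-05) and 0.38 in Tb (adjusted p = 0.143), and Adgre1 by -1.99 in DOX (adjusted p = 1.27e-05) and 0.20 in Tb (adjusted p = 0.639). Pf4 and Cbr2, also expressed by resident cardiac macrophages, were higher in Tb, with log2 fold changes of -2.74 ± 0.40 and -1.89 ± 0.30 (DOX minus Tb). Lyz2, lysozyme of all myeloid cells, was at 77.9, 46.4, 67.9, 50.2 and 62.6 CPM in DOX and 147 to 230.2 CPM (median 195) in Tb, with Control at 102 to 133 CPM between them. The summed resident markers gave 69.7 to 102 FPKM in DOX, 142 to 169 in Tb and 123 to 162 in Control.

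Chemokines, which attract leukocytes, and their receptors were higher in Tb in 19 of 28 tested genes and in DOX in none. Ccr1, a receptor of neutrophils and monocytes, stood at 2.35, 1.23, 3.75, 1.44 and 1.03 CPM in DOX and 12 to 63 CPM (median 25.8) in Tb (log2 fold change -4.11 ± 0.46, adjusted p = 1.38e-06). Ccl21a, a ligand made by lymphatic endothelium, stood at 5.98, 3.24, 3.89, 6.38 and 6.32 CPM in DOX and 16.7 to 31.6 CPM (median 23.6) in Tb (log2 fold change -2.20 ± 0.22, adjusted p = 3.52e-07). For Ccl21a the Tb libraries overlapped the Control range of 20.6 to 34.5 CPM and the DOX libraries were all under it, with -2.36 in DOX (adjusted p = 6.2e-07) and -0.16 in Tb (adjusted p = 0.66) against Control. Cxcl12, a stromal retention signal for leukocytes, overlapped between the groups at 71.2 to 159 CPM in DOX and 155 to 309 CPM in Tb (log2 fold change -1.14 ± 0.20, adjusted p = 0.000147). Without Tb replicate 5 the count was 15 of 28 and the list's median log2 fold change went from -2.32 to -1.24.

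Complement, acute-phase and innate sensing genes stood on the Tb side too. In the complement and coagulation list 15 of 31 tested genes were higher in Tb and none in DOX. Itgb2 and Itgam, the chains of complement receptor 3, were higher in Tb, with log2 fold changes of -3.74 ± 0.35 and -3.76 ± 0.47 (DOX minus Tb, adjusted p = 1.85e-07 and 3.66e-06), as was C5ar1, the C5a receptor, with -3.55 ± 0.41. Cfp, properdin, was at 2.42, 3.54, 4.55, 2.79 and 3.08 CPM in DOX and 7.52 to 14.9 CPM (median 10.5) in Tb. Of 37 STAT3 and acute-phase genes 20 were higher in Tb, with 8 without Tb replicate 5 and 12 in a fit of only the 11 DOX and Tb libraries. Hp, haptoglobin, which also sits in neutrophil granules, stood at 1.48, 1.23, 3.1, 1.6 and 0.395 CPM in DOX and 12.9 to 131 CPM (median 48.1) in Tb (log2 fold change -5.39 ± 0.62, adjusted p = 1.67e-06). Saa3, an inducible serum amyloid, overlapped at 0.237 to 5.27 CPM in DOX and 1.57 to 246 CPM in Tb, its highest value in Tb replicate 5. Socs3, the feedback inhibitor induced by STAT3, named after its values were seen, stood at 4.03, 5.86, 10.5, 15 and 4.5 CPM in DOX and 8.44 to 196 CPM (median 20.025) in Tb, where replicate 5 was highest (log2 fold change -2.63 ± 0.63, adjusted p = 0.00286, and -1.33 without that library). Vcam1, an endothelial adhesion molecule, was at 13.2, 7.63, 11.3, 10.3 and 14.8 CPM in DOX and 21.7 to 30.8 CPM (median 29.1) in Tb, with no overlap (log2 fold change -1.30 ± 0.19, adjusted p = 2.32e-05).

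Among 23 genes of Toll-like receptor signaling 7 were higher in Tb, led by Tlr1 at 0.553 to 1.68 CPM in DOX against 4.18 to 24.8 CPM in Tb, Tlr13 at 2.54 to 6.54 against 7.32 to 32.8 CPM and Tlr2 at 1.16 to 4.41 against 5.14 to 20.9 CPM. Il1b, interleukin 1 beta, stood at 0.0672, 0.385, 2.9, 0.399 and 0.237 CPM in DOX and 4.64 to 32.9 CPM (median 15.2) in Tb (log2 fold change -4.37 ± 0.58, adjusted p = 7.58e-06, and -5.98 without DOX replicate 3). Cybb, the catalytic chain of the phagocyte NADPH oxidase, stood at 4.84, 4.32, 7.18, 5.58 and 4.42 CPM in DOX and 19.9 to 84.5 CPM (median 45.7) in Tb (log2 fold change -3.27 ± 0.34, adjusted p = 5.68e-07). The DOX values of Cybb lay under the Control range of 8.23 to 12.9 CPM and the Tb values above it. Il6 itself passed the test at a log2 fold change of -6.90 ± 1.76 only with Tb replicate 5, and without it the value was -1.89 with an adjusted p of 0.115.

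The chains of MHC class II, which present antigen to helper T cells, were lower in DOX than in Tb or Control. Of 8 tested genes of the list 4 were higher in Tb and none in DOX. With the adjusted p alone 1 was higher in DOX, Rfxank, a subunit of the RFX factor that binds class II promoters, and H2-DMa, Rfx5 and Rfxap did not pass. The 4 called are the chains and the chaperone of the class II molecule: H2-Aa, H2-Ab1, H2-Eb1 and Cd74. The RefSeq promoters (GRCm38.p6) of 2 of them are shown because CIITA, the class II transactivator, acts through a proximal element whose Y box holds CCAAT. The 150 bases before the start are given for H2-Aa at chr17:34287824-34287973 (-) and H2-Eb1 at chr17:34305717-34305866 (+), with CCAAT on either strand in capitals.
H2-Aa: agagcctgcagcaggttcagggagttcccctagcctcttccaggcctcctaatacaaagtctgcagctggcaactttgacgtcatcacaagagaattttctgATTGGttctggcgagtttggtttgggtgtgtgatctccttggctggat
H2-Eb1: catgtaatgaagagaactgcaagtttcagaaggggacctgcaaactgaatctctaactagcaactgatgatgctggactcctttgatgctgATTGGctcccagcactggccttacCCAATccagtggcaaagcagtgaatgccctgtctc
The match of H2-Aa starts 48 bases and those of H2-Eb1 59 and 35 bases before the start. In all 32851 promoters 24.5% held CCAAT in this window.

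H2-Aa (chr17:34501718-34506797) stood at 0.672, 1.39, 0.527, 2.55 and 1.343 CPM in DOX and at 9.39 to 23.2 CPM (median 20.3) in Tb (log2 fold change -3.81 ± 0.37, adjusted p = 2.96e-07). H2-Ab1 stood at 0.336, 0.462, 0.725, 1.2 and 0.948 CPM in DOX and 3.19 to 8.87 CPM (median 8.03) in Tb (log2 fold change -3.26 ± 0.33, adjusted p = 4.67e-07). Cd74, the invariant chain, stood at 7.73, 7.24, 2.77, 15.5 and 7.42 CPM in DOX and 29.2 to 72 CPM (median 67.3) in Tb (log2 fold change -2.83 ± 0.34, adjusted p = 2.35e-06). In all 3 every DOX library was under every Tb library, and the Tb libraries overlapped the Control range. Against Control, H2-Aa differed by -3.69 in DOX (adjusted p = 1.31e-06) and 0.12 in Tb (adjusted p = 0.854). Tb-DOX hearts held H2-Aa at 1.87 to 5.28 CPM. H2-Ea, the alpha chain of the I-E molecule that some strains lack, named after its values were seen, was at 0.791 to 3.83 CPM in DOX and 12.2 to 33.5 CPM in Tb. The summed class II level was 12.6 to 20.1 FPKM in DOX, 38.9 to 77.4 in Tb and 43.5 to 78.4 in Control. Of 21 tested class I and peptide-loading genes 1 was higher in Tb and 1 in DOX, and without DOX replicate 4 there were 2 and none.

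Lymphocyte genes were sparse. Of 18 B cell and plasma cell markers 4 reached the minimum, and 3 of these were higher in Tb. Ighm, the IgM heavy chain, stood at 1.61, 0.925, 1.32, 1.28 and 2.21 CPM in DOX and 5.56 to 11.3 CPM (median 8.46) in Tb with no overlap (log2 fold change -2.49 ± 0.31, adjusted p = 3.66e-06). Of 29 T cell and thymocyte markers 3 reached the minimum, 2 of these were higher in DOX, and none was without DOX replicate 4. Cd3e was called with 4.44, 7.71, 14, 308 and 9.48 CPM in DOX and 0.86 to 42.2 CPM (median 1.39) in Tb, and the call did not hold without any single Tb library other than replicate 5. Without DOX replicate 4 the log2 fold change went from 3.08 to 0.12 (adjusted p = 0.936), and it was 5.75 without Tb replicate 5 (adjusted p = 0.000149) and 2.80 without both (adjusted p = 9.23e-05). No natural killer marker of 13 reached the minimum. Hdc, histidine decarboxylase of mast cells and granulocytes, was at 3.36, 2.54, 3.29, 6.7 and 1.42 CPM in DOX and 7.91 to 64.8 CPM (median 20.8) in Tb (log2 fold change -2.98 ± 0.44, adjusted p = 2.41e-05). Kit, the mast cell and progenitor receptor, was at 1.74 to 4.48 against 7.06 to 15.3 CPM.

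Globin genes, a measure of red blood cells and reticulocytes left in the tissue, were low in DOX. Of 10 tested erythroid genes 6 were higher in Tb and none in DOX. Hbb-bs, the adult beta globin, stood at 2.42, 71.6, 8.04, 25.2 and 5.21 CPM in DOX and 222 to 514 CPM (median 339.6) in Tb (log2 fold change -3.999 ± 0.71, adjusted p = 0.000181, and -5.16 without DOX replicate 2). Hba-a1, named after its values were seen, stood at 1.28, 49.7, 10.7, 27.3 and 4.82 CPM in DOX and 122 to 258 CPM (median 169.9) in Tb, and Alas2, the erythroid heme synthase, at 0.874, 5.01, 1.45, 3.59 and 1.58 CPM and 10.6 to 25.1 CPM (median 17). DOX replicate 2 was the highest DOX library for all 3, and every DOX library was under every Tb library. Control hearts held Hbb-bs at 134 to 499 CPM and Tb-DOX hearts at 1.18 to 17.8 CPM. Against Control, Hbb-bs differed by -3.42 in DOX (adjusted p = 0.00081) and 0.58 in Tb (adjusted p = 0.613). The 2 alpha globin genes are near-identical copies, so their split is uncertain.

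Many matrix genes were lower in DOX than in Tb. Of 45 tested matrix genes 22 were higher in Tb and 3 in DOX, with a median log2 fold change of -1.18 against -0.01 over all genes. Against Control the medians were -1.14 in DOX and -0.28 in Tb. Sparc, a collagen-binding glycoprotein, stood at 139.5, 98.2, 94.2, 106 and 123 CPM in DOX and 249 to 369 CPM (median 314) in Tb (log2 fold change -1.47 ± 0.14, adjusted p = 2.96e-07). Lum, lumican, which spaces collagen fibrils, stood at 47.6, 28.1, 20.8, 27.8 and 48.2 CPM in DOX and 79.9 to 144 CPM (median 116) in Tb (log2 fold change -1.73 ± 0.20, adjusted p = 2.18e-06). Fn1, fibronectin, stood at 32.3, 22.1, 18.2, 17.6 and 28 CPM in DOX and 50.9 to 75.8 CPM (median 60.4) in Tb (log2 fold change -1.39 ± 0.16, adjusted p = 1.73e-06). None of the 3 overlapped between the groups, and in each the DOX libraries lay under the Control range. Col3a1 and Col1a1, the chains of fibrillar collagens III and I, both named after their values were seen, were at 4.87 to 38.4 and 7.74 to 19.3 CPM in DOX against 91.8 to 229 and 23.9 to 58 CPM in Tb.

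The exceptions ran the other way by similar amounts. Thbs2, thrombospondin 2, a matricellular protein of injured tissue, stood at 106, 121, 152, 89.2 and 51.7 CPM in DOX and 17.3 to 40.3 CPM (median 28.2) in Tb (log2 fold change 1.84 ± 0.22, adjusted p = 2.45e-06). Lox, the lysyl oxidase that crosslinks collagen, named after its values were seen, stood at 46.8, 33.7, 47.5, 76.6 and 27.3 CPM in DOX and 5.04 to 52.3 CPM (median 8.1) in Tb (log2 fold change 1.42 ± 0.46, adjusted p = 0.019). Tb replicate 5 held Lox at 52.3 CPM and was the only Tb library inside the DOX range. Without it the log2 fold change of Lox was 2.17 (adjusted p = 4.52e-05), and without DOX replicate 4 it was 1.15 and no longer called (adjusted p = 0.0713). The Lox call was also lost in a fit of only the 11 DOX and Tb libraries (adjusted p = 0.0829). The matrix list had 2 genes higher in DOX without DOX replicate 4. Among 17 fibroblast markers 6 were higher in Tb and 1 in DOX. Pi16, a marker of adventitial fibroblasts, stood at 15, 8.48, 2.7, 7.1 and 10.4 CPM in DOX and 49.6 to 71.1 CPM (median 61.2) in Tb (log2 fold change -2.79 ± 0.28, adjusted p = 4.55e-07), and Dpt, dermatopontin, at 54, 34.1, 21.4, 36.1 and 49.4 CPM and 69.3 to 105 CPM (median 89.5) (log2 fold change -1.19 ± 0.17, adjusted p = 2.02e-05). Dpep1, a membrane dipeptidase, was the fibroblast marker higher in DOX, at 97.1, 80.1, 107, 97.2 and 69.7 CPM in DOX and 20.2 to 38.4 CPM (median 25.7) in Tb (log2 fold change 1.69 ± 0.20, adjusted p = 2.32e-06).

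Among 23 matrix proteases and inhibitors 8 were higher in Tb and 1 in DOX. Besides Mmp8 and Mmp9, Adam8, a leukocyte sheddase, was at 0.385 to 1.36 CPM in DOX and 4.91 to 32.1 CPM in Tb, and Plau, urokinase, at 1.2 to 3.7 and 3.87 to 10.040 CPM. Without Tb replicate 5 the list had 6 genes higher in Tb and 2 in DOX and its median turned from -0.35 to 0.23, and without DOX replicate 4 the counts were 7 and 0. Mfap4, a microfibril protein, and Itgb6, an integrin that activates TGF-beta, were singled out by the study on these samples, so their direction is not independent evidence. Mfap4 was at 5.38, 1.31, 1.19, 1.44 and 1.42 CPM in DOX and 2.99 to 9.88 CPM (median 4.33) in Tb, where DOX replicate 1 lay inside the Tb range (log2 fold change -1.30 ± 0.39, adjusted p = 0.0126, and -1.99 without that library). The Mfap4 call was lost in a fit of only the 11 DOX and Tb libraries (adjusted p = 0.0591). Itgb6 was at 0.538, 0.616, 0.725, 0.319 and 3.4 CPM in DOX and 2.51 to 25.9 CPM (median 10.9) in Tb (log2 fold change -3.42 ± 0.55, adjusted p = 7.14e-05), only DOX replicate 5 and Tb replicate 5 crossed, and the value was -4.41 without DOX replicate 5. Igfbp7, a vascular matrix protein that binds IGF, was at 34.6, 26.6, 18.3, 24.5 and 33.3 CPM in DOX and 75.7 to 102 CPM (median 82.5) in Tb with no overlap (log2 fold change -1.62 ± 0.16, adjusted p = 2.96e-07). Of 21 endothelial markers 1 was called, Cav1, caveolin 1, at 258, 183, 182, 163 and 167 CPM in DOX and 369 to 468 CPM (median 438) in Tb (log2 fold change -1.15 ± 0.13, adjusted p = 1.37e-06), with 1 more in DOX without Tb replicate 5 and 1 more in Tb without DOX replicate 4.

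Tmsb4x, thymosin beta 4, and Actb, cytoplasmic actin, set the actin pool of non-muscle cells and were named after their values were seen. Tmsb4x stood at 149, 116, 112, 114 and 96.1 CPM in DOX and 423 to 699 CPM (median 469) in Tb (log2 fold change -2.12 ± 0.14, adjusted p = 5.64e-09), with Control at 294 to 354 CPM between the groups. Vim, the mesenchymal filament vimentin, also named after its values were seen, stood at 112, 58.6, 39.6, 54.9 and 60.6 CPM in DOX and 195 to 260.3 CPM (median 218) in Tb (log2 fold change -1.76 ± 0.20, adjusted p = 1.73e-06). Its Tb values spanned the Control range of 219.5 to 254 CPM.

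On the DOX side, the largest fold among genes that averaged at least 2 FPKM and did not overlap between the groups was that of Cyp1a1 (chr9:57595211-57611107), the cytochrome P450 by which activation of the aryl hydrocarbon receptor is usually read. The receptor binds GCGTG within xenobiotic response elements. The 150 bases before the RefSeq start (GRCm38.p6, chr9:57697463-57697612, +) are shown with that core in capitals.
Cyp1a1: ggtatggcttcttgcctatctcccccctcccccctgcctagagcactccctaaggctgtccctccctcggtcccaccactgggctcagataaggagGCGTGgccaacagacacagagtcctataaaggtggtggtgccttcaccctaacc
The match starts 54 bases before the start, and 20.5% of all 32851 promoters held the core on either strand in this window. Of the 8 tested aryl hydrocarbon receptor genes 7 had a promoter entry, and 3 of these held the core in any entry. The core alone is not a full response element, and binding of the receptor at this match was not tested. Cyp1a1 stood at 11.4, 7.63, 40.4, 1.6 and 1.58 CPM in DOX and 0.179 to 1.25 CPM (median 0.504) in Tb (log2 fold change 4.32 ± 0.71, adjusted p = 9e-05). The DOX libraries spread over a wide range, the log2 fold change was 3.15 without DOX replicate 3, and the lowest of them was above the highest Tb library. Against Control, at 0 to 0.603 CPM, Cyp1a1 differed by 5.83 in DOX (adjusted p = 5.99e-05) and 1.51 in Tb (adjusted p = 0.394). Cyp1b1, a related P450, overlapped at 28.3 to 43.7 CPM in DOX and 7.06 to 42.6 CPM in Tb (log2 fold change 1.04 ± 0.35, adjusted p = 0.0236), with Tb replicate 5 as the highest Tb library at 42.6 CPM. The Cyp1b1 call was lost without any 1 of 6 libraries, DOX replicates 3 and 4 and Tb replicates 1 to 4, at log2 fold changes down to 0.88. Of 8 tested aryl hydrocarbon receptor genes these 2 were higher in DOX and Lpcat2 in Tb.

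Other metabolic enzymes, Cyp26b1 and Inmt, and the proteoglycan Spock2 were among the 10 largest folds toward DOX. Cyp26b1, which clears retinoic acid, stood at 40.8, 37.1, 57.6, 178 and 22.4 CPM in DOX and 3.64 to 19.6 CPM (median 6.93) in Tb (log2 fold change 2.82 ± 0.63, adjusted p = 0.00165, and 2.04 with an adjusted p of 0.0117 without DOX replicate 4). Inmt, an N-methyltransferase, stood at 18.4, 21.2, 12.7, 11 and 4.66 CPM in DOX and 1.01 to 3.57 CPM (median 2.04) in Tb (log2 fold change 2.61 ± 0.39, adjusted p = 3.42e-05). Spock2, a testican proteoglycan, stood at 109.9, 96.4, 106, 108 and 71.2 CPM in DOX and 3.6 to 48.5 CPM (median 10.7) in Tb (log2 fold change 2.52 ± 0.47, adjusted p = 0.000284, and 3.17 without Tb replicate 6). The groups did not overlap for any of the 3, and for Inmt the Control range of 4.25 to 6.85 CPM lay between the Tb libraries and most DOX libraries. Outside these 10, Sult1a1, a sulfotransferase induced by glucocorticoids, was at 162, 153, 121, 144 and 115 CPM in DOX and 30.020 to 64.6 CPM (median 35.2) in Tb (log2 fold change 1.69 ± 0.23, adjusted p = 1.24e-05).

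**Figure D4:**
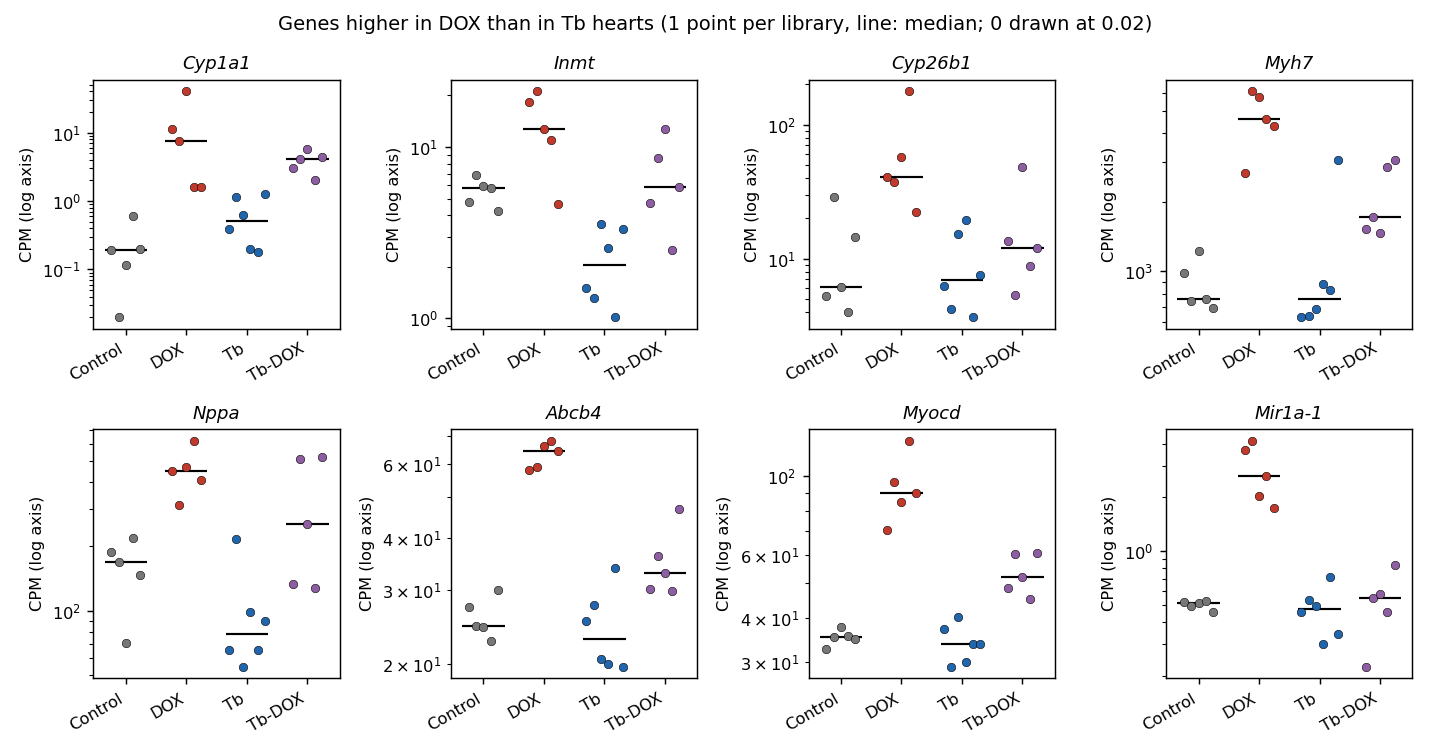
CPM per library on a log axis in Control, DOX, Tb and Tb-DOX for 8 genes called higher in DOX than in Tb, with the median as a line and values at 0 drawn at 0.02. In all but Myh7, where Tb replicate 6 reaches 3049 CPM, every DOX library is above every Tb library.

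Genes of the stressed myocardium separated the stressors in part. Myh7, the slow beta myosin heavy chain that is re-expressed in failing rodent hearts, stood at 2690, 6127, 5769, 4637 and 4296 CPM in DOX and 629.9 to 3049 CPM (median 754) in Tb (log2 fold change 2.07 ± 0.36, adjusted p = 0.000148). Tb replicate 6, at 3049 CPM, was the only Tb library inside the DOX range, and without it the value was 2.68. Nppa, atrial natriuretic peptide, stood at 448, 312, 467, 622 and 409.9 CPM in DOX and 54.7 to 216 CPM (median 78.1) in Tb with no overlap (log2 fold change 2.20 ± 0.39, adjusted p = 0.000195). Nppb, B-type natriuretic peptide, was not called at 431, 134, 619.8, 788 and 477 CPM in DOX and 76.5 to 987 CPM (median 162) in Tb (log2 fold change 0.84 ± 0.57, adjusted p = 0.269). The atrial markers summed to 413.9 to 774.7 FPKM in DOX and 123.2 to 372.2 FPKM in Tb, with Nppa among them, and 2 of 12 tested were called, Nppa and the atrial kinase Sbk3, with Gja5 higher in Tb as well without Tb replicate 5, while their part in the Nppa value was not tested. Without Tb replicate 5, at 987 CPM, the Nppb value was 1.9 with an adjusted p of 0.00115. Of 16 tested cardiac stress and fetal genes 2 were higher in DOX and 2 in Tb, and without Tb replicate 5 the counts were 6 and 0. Myh6, the fast adult alpha chain, was higher in DOX by less than the fold limit (log2 fold change 0.65 ± 0.10, adjusted p = 4.31e-05) and was at 29060 to 32650 CPM in DOX against 14690 to 21650 CPM in Tb. Ckm, muscle creatine kinase, was at 913 to 1593 against 1037 to 1471 CPM (log2 fold change -0.01 ± 0.13, adjusted p = 0.947).

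Myocd, the myocardin coactivator of muscle genes, named after its values were seen, stood at 70.6, 96.5, 84.9, 126 and 89.8 CPM in DOX and 29.1 to 40.2 CPM (median 33.8) in Tb (log2 fold change 1.46 ± 0.12, adjusted p = 5.43e-08). The Tb libraries spanned the Control range of 32.7 to 37.8 CPM and every DOX library was above it, with 1.41 in DOX (adjusted p = 4.87e-07) and -0.05 in Tb (adjusted p = 0.846) against Control. The cardiomyocyte markers as a list had a median log2 fold change of 0.42. In the DOX direction 13 of 20 passed the adjusted p alone, where 15.9% of all genes did, and none reached the fold limit. Leaving out Tb replicate 5 brought 2 past it, Tnnt2 and Csrp3, a muscle LIM protein. The median of the list was 0.24 with library totals, where the median of all genes was -0.18. Their summed level was 30800 to 35650 FPKM in DOX and 26230 to 29400 FPKM in Tb.

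Some micro RNA loci were also higher in DOX, among them loci known to be transcribed in heart muscle. These counts come from long RNA libraries and measure the hairpin locus or its primary transcript, not the mature miRNA. The mature arms from RefSeq (GRCm38.p6) are shown with the seed, bases 2 to 8, in capitals, for the 2 cardiac loci of those called that have entries, Mir208a on chromosome 14 and Mir1a-1 on chromosome 2. For the 3p arm of Mir1a-1 no usable entry was found, so that arm and its seed are not shown. The 3 arms shown share no seed.
mmu-miR-208a-3p: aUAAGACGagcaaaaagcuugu
mmu-miR-208a-5p: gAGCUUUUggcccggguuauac
mmu-miR-1a-1-5p: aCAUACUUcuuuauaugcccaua
Mir1a-1 (chr2:180030841-180030917) stood at 3.7, 4.16, 2.04, 2.63 and 1.74 CPM in DOX and 0.302 to 0.717 CPM (median 0.475) in Tb (log2 fold change 2.58 ± 0.31, adjusted p = 2.26e-06). Mir208a, which lies in an intron of Myh6 and was named after its values were seen, stood at 5.38, 6.63, 4.28, 3.19 and 4.34 CPM in DOX and 0.418 to 2.57 CPM (median 1.65) in Tb (log2 fold change 1.495 ± 0.34, adjusted p = 0.00192). Neither overlapped between the groups. Of 83 tested miRNA loci 8 were higher in DOX and none in Tb, the others being Mir133a-1, Mir133a-2, Mir1b, Mir143, Mir23b and Mir486. The most abundant of the 83, Mir208b, named after its values were seen, was not called, at means of 42.4 CPM in DOX and 27.7 CPM in Tb (log2 fold change 0.62, adjusted p = 0.21). Reads of a locus inside a host gene cannot be told from reads of the host's unspliced transcript.

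Non-coding genes made up a larger part of the calls toward DOX than of those toward Tb. By GENCODE M21 gene type, 13580 of the 13928 tested genes had an entry. Protein-coding genes were 217 of the 412 genes higher in DOX (52.7%) and 894 of the 1004 higher in Tb (89.0%). Of 351 tested antisense genes 48 were higher in DOX (13.7%) and 15 in Tb (4.27%), whereas of 11569 protein-coding genes 217 (1.88%) and 894 (7.73%) were. Of 290 lincRNAs 37 were higher in DOX and 31 in Tb. Among the 10 largest folds toward DOX, Gm12295 stood at 222, 275, 233, 367 and 139 CPM in DOX and 20.8 to 83 CPM (median 31.4) in Tb (log2 fold change 2.58 ± 0.31, adjusted p = 2.26e-06). Gm15626 stood at 24.8, 31.8, 24.3, 48 and 29.4 CPM in DOX and 2.75 to 10.8 CPM (median 4.22) in Tb (log2 fold change 2.58 ± 0.30, adjusted p = 1.8e-06). Gm47140 was at 3.87 to 70.040 against 1.52 to 3.7 CPM, with DOX replicate 4 highest and a log2 fold change of 3.20 that was 1.87 without it, Gm5481 at 2.76 to 12.1 against 0.523 to 2.21 CPM and Gm35533 at 4.41 to 17.9 against 0.801 to 2.39 CPM. Malat1, an abundant nuclear RNA named after its values were seen, stood at 2774, 3309, 2755, 4000 and 2470 CPM in DOX and 1150 to 1965 CPM (median 1279.5) in Tb (log2 fold change 1.09 ± 0.15, adjusted p = 1.2e-05), and 0.96 without DOX replicate 4, just under the fold limit. The sources used here do not state a stranded library, so reads of an antisense gene cannot be told from those of the gene it overlaps.

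**Figure D5:**
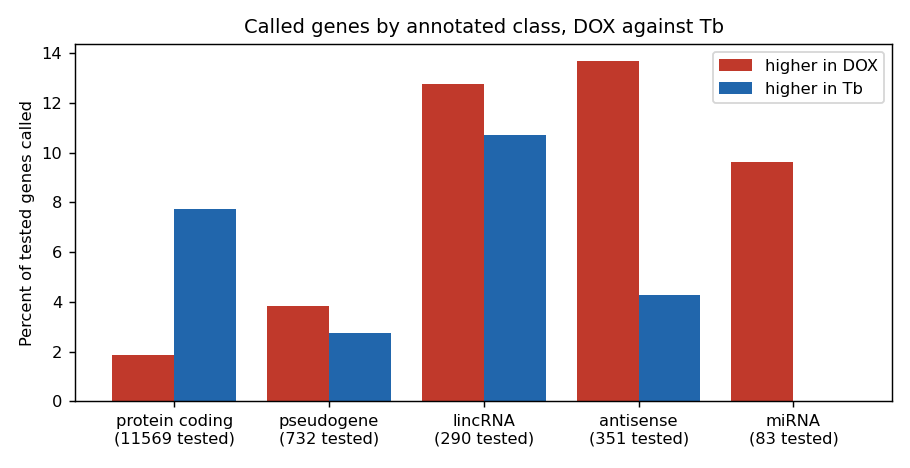
Percent of tested genes called higher in DOX (red) and higher in Tb (blue) for 5 gene types of GENCODE M21, with the number tested under each. Antisense genes reach 13.7% toward DOX and 4.27% toward Tb, and protein-coding genes 1.88% and 7.73%.

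Glucocorticoid targets, clock genes and muscle wasting genes leaned toward DOX, and for several of them DOX replicate 4 decided the count. Of 19 glucocorticoid targets 7 were higher in DOX and 2 in Tb, and the counts were 3 and 3 without DOX replicate 4 and 4 and 2 in a fit of only the 11 DOX and Tb libraries. Klf9, a transcription factor induced by corticosterone, stood at 318, 311, 342, 551 and 239 CPM in DOX and 143 to 198 CPM (median 154) in Tb (log2 fold change 1.10 ± 0.16, adjusted p = 1.95e-05). Its groups did not overlap, and without DOX replicate 4 its log2 fold change was 0.86 with an adjusted p of 3.36e-05, under the fold limit. Klf15, which drives amino acid breakdown in muscle, stood at 72.2, 72.3, 51.6, 162 and 61.8 CPM in DOX and 19.4 to 57.2 CPM (median 29.9) in Tb (log2 fold change 1.35 ± 0.27, adjusted p = 0.00064), where Tb replicate 4 lay inside the DOX range. Its value without DOX replicate 4 was 0.96. Fkbp5, a chaperone of the glucocorticoid receptor, named after its values were seen, stood at 160.2, 148, 100.3, 118 and 99 CPM in DOX and 15 to 111 CPM (median 52.9) in Tb (log2 fold change 1.11 ± 0.42, adjusted p = 0.0447). The Fkbp5 call was lost without any 1 of 11 libraries, DOX replicates 1 to 5, Tb replicates 1 to 3, Control replicate 2 and Tb-DOX replicates 1 and 4, at adjusted p of 0.0508 to 0.0951. Per1, a clock repressor and direct glucocorticoid target, stood at 87.2, 128, 131, 223 and 132 CPM in DOX and 32.7 to 142 CPM (median 41.3) in Tb (log2 fold change 1.29 ± 0.31, adjusted p = 0.00269), with Tb replicate 5 inside the DOX range.

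Of 19 clock genes 4 were higher in DOX, among them Per1, Arntl and Ciart, and without DOX replicate 4 there was 1 in each direction. Arntl, which encodes BMAL1, stood at 14.1, 17.6, 19.4, 38.5 and 21.7 CPM in DOX and 1.36 to 20.6 CPM (median 2.96) in Tb (log2 fold change 1.72 ± 0.56, adjusted p = 0.02), and only Tb replicate 5, at 20.6 CPM, reached the DOX range. Without that library the Arntl value was 2.49 (adjusted p = 0.000351). In a fit of only the 11 DOX and Tb libraries Arntl was not called. Without DOX replicate 4 the values were 1.42 for Arntl (adjusted p = 0.0698) and 0.60 for Ciart (adjusted p = 0.219), against 1.72 and 1.03 with it. Ciart was also not called without any 1 of 6 other libraries. The hour at which hearts were taken is not given in the sources used here, and its part in the result was not tested. Of 23 atrophy and autophagy genes 3 were higher in DOX, Klf15, Ctsl and Trim63, and without DOX replicate 4 there was 1. Ctsl, cathepsin L, stood at 492, 486, 1145, 768 and 257 CPM in DOX and 173 to 434 CPM (median 200.1) in Tb (log2 fold change 1.28 ± 0.28, adjusted p = 0.00147), and its value without DOX replicate 3, at 1145 CPM, was 0.95. For Trim63, the ligase MuRF1, the value without DOX replicate 4 was 0.30 (adjusted p = 0.0784) against 1.35 ± 0.37 with it.

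Interferon-stimulated genes were called in both directions, 6 of 38 higher in DOX and 4 in Tb, or none and 3 in a fit of only the 11 DOX and Tb libraries. Iigp1 stood at 31.9, 23.6, 40.9, 758 and 32.4 CPM in DOX and 16.6 to 67.2 CPM (median 43.2) in Tb (log2 fold change 2.08 ± 0.67, adjusted p = 0.0195), and Irgm1, a related GTPase, at 26.1, 19.6, 27.9, 199 and 22.3 CPM and 19 to 25.8 CPM (median 22.2) (log2 fold change 1.40 ± 0.43, adjusted p = 0.0157). Only DOX replicate 4 was above the Tb range in Iigp1. Without it 0 genes of the list were higher in DOX and 5 in Tb, and Iigp1 was at -0.39 (adjusted p = 0.274) and Irgm1 at 0.08 (adjusted p = 0.696). Oas2, an antiviral oligoadenylate synthetase, was at 3.16, 2.39, 2.63, 7.02 and 0.948 CPM in DOX and 7.88 to 18.1 CPM (median 16.1) in Tb with no overlap (log2 fold change -2.23 ± 0.34, adjusted p = 4.22e-05). Trim30a was at 7.09 to 15.9 against 16.4 to 32 CPM (log2 fold change -1.41 ± 0.22, adjusted p = 4.55e-05).

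Genes that handle doxorubicin itself were examined as a list of 26 tested targets, efflux pumps and reductases, of which 2 were higher in DOX and 4 in Tb. Abcb4, a phospholipid transporter of the P-glycoprotein family, stood at 58.1, 59.1, 66.3, 68.2 and 64.5 CPM in DOX and 19.7 to 34 CPM (median 23) in Tb (log2 fold change 1.36 ± 0.14, adjusted p = 4.52e-07). No library of one group entered the range of the other, and Control was at 22.7 to 30.1 CPM. Abcb1b, a P-glycoprotein that exports doxorubicin, named after its values were seen, stood at 12.4, 12, 18.7, 23.9 and 6.24 CPM in DOX and 4.77 to 9.38 CPM (median 6.19) in Tb (log2 fold change 1.16 ± 0.27, adjusted p = 0.00211), and 0.90 without DOX replicate 4. Akr1c14, an aldo-keto reductase, was at 6.12, 3.16, 1.78, 1.6 and 2.13 CPM in DOX and 6.99 to 14.5 CPM (median 9.79) in Tb (log2 fold change -1.81 ± 0.29, adjusted p = 5.66e-05).

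Of 30 tested p53 targets 1 was higher in DOX, Dcxr, and 1 in Tb, Cd80. The counts were 3 and 1 without Tb replicate 5, 2 and 2 without DOX replicate 4, and 1 and 4 with library totals. Dcxr, a xylulose reductase, stood at 6.92, 6.93, 10.5, 7.26 and 6.48 CPM in DOX and 1.99 to 3.82 CPM (median 2.65) in Tb (log2 fold change 1.49 ± 0.20, adjusted p = 9.17e-06). Cdkn1a, the cell cycle inhibitor p21, named after its values were seen, was at 134, 159, 99.3, 201 and 179 CPM in DOX and 17.9 to 277 CPM (median 21.3) in Tb and was not called (log2 fold change 1.14 ± 0.57, adjusted p = 0.13). Without Tb replicate 5, at 277 CPM, its log2 fold change was 2.43 with an adjusted p of 2.43e-05. The value of Cd80 went from -1.10 to -0.87 without DOX replicate 3. Of 14 tested cell cycle genes 2 were higher in Tb, Mki67 and Rrm2, a subunit of ribonucleotide reductase whose value went from -1.89 to -1.14 without Tb replicate 5. Mki67, the proliferation antigen Ki-67, stood at 0.538, 0.385, 1.38, 1.68 and 0.711 CPM in DOX and 3.53 to 29.7 CPM (median 8.8) in Tb (log2 fold change -3.59 ± 0.55, adjusted p = 3.82e-05), with Control at 2.58 to 5.1 CPM.

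Heat shock and immediate early genes were higher in Tb where they were called, and for the immediate early genes Tb replicate 5 decided the count. Of 20 heat shock genes 3 were higher in Tb, and 6 with library totals. Hsph1, a chaperone of the Hsp110 family, stood at 20.7, 17, 22.5, 16.8 and 24.4 CPM in DOX and 22.9 to 131 CPM (median 55.6) in Tb (log2 fold change -1.69 ± 0.30, adjusted p = 0.000177), with Tb replicate 6 inside the DOX range, and it was called without Tb replicate 5 too, at -1.77. Of 19 immediate early genes 7 were higher in Tb (11 with library totals), and without Tb replicate 5 there were 2, with 1 higher in DOX. Jun, a subunit of AP-1, stood at 23.7, 26.4, 18.2, 29.5 and 19.3 CPM in DOX and 39.5 to 154 CPM (median 49.9) in Tb with no overlap (log2 fold change -1.56 ± 0.27, adjusted p = 0.000175). Fos, its partner, was at 1.5 to 3.0 CPM in DOX and 1.05 to 186 CPM in Tb, with a Tb median of 5.09 and a log2 fold change of -4.23 that was -1.55 without Tb replicate 5.

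Fuel and ion handling differed in single genes. Of 34 fatty acid oxidation and PPAR target genes 5 were higher in Tb and 1 in DOX, Ppargc1a, which was not called without Tb replicate 5 or without DOX replicate 4. Cpt2, the inner carnitine palmitoyltransferase, stood at 70.2, 51.9, 33.5, 51.4 and 81.6 CPM in DOX and 66 to 175 CPM (median 158) in Tb (log2 fold change -1.21 ± 0.24, adjusted p = 0.000571), and 2 Tb libraries lay inside the DOX range, replicate 5 at 71.7 and replicate 6 at 66 CPM. Pdk4, which blocks pyruvate entry into mitochondria, stood at 180.5, 75.4, 121, 189 and 528 CPM in DOX and 215 to 1644 CPM (median 1002) in Tb (log2 fold change -2.17 ± 0.49, adjusted p = 0.00179), where Tb replicate 6 lay inside the DOX range, and the value was -2.81 without DOX replicate 5. Ucp3, an uncoupling protein that the study singled out on these samples, stood at 5.71, 4.47, 6.92, 2.87 and 11 CPM in DOX and 2.45 to 76.2 CPM (median 28.8) in Tb, with Tb replicate 5 lowest of all (log2 fold change -2.41 ± 0.55, adjusted p = 0.00182). Plin2, the lipid droplet coat, was at 26.3 to 40.1 against 52.2 to 88.5 CPM (log2 fold change -1.004 ± 0.15, adjusted p = 3.71e-05), and leaving out any 1 of 6 libraries took it under the fold limit, at most to -0.91 without Tb replicate 4.

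Of 30 calcium handling and ion channel genes 3 were higher in Tb and 1 in DOX, and without Tb replicate 5 the counts were 4 and 0. Kcnd2, the potassium channel Kv4.2 of the transient outward current, stood at 27.9, 23.7, 14, 16.3 and 22.1 CPM in DOX and 28.4 to 60.4 CPM (median 47.9) in Tb with no overlap (log2 fold change -1.14 ± 0.19, adjusted p = 0.000106). Scn4b, a sodium channel beta subunit, was at 17.4 to 53.8 against 49 to 156 CPM (log2 fold change -1.69 ± 0.29, adjusted p = 0.000138), Kcnv2, a silent potassium channel subunit, at 0.395 to 4.71 against 5.55 to 22.2 CPM (log2 fold change -2.15 ± 0.46, adjusted p = 0.00114), and Kcnj12, an inward rectifier, at 11.3 to 27.1 against 5.79 to 11.4 CPM (log2 fold change 1.03 ± 0.18, adjusted p = 0.000138). Kcnj12 fell under the fold limit without any 1 of 4 libraries, at the least 0.83 without DOX replicate 2.

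Single genes of iron handling, growth factor signaling and sulfur and sugar metabolism were called with no overlap between the groups. Slc40a1, ferroportin, the iron exporter of macrophages, stood at 9.41, 8.48, 4.15, 2.79 and 8.13 CPM in DOX and 28 to 52.3 CPM (median 41.3) in Tb (log2 fold change -2.65 ± 0.25, adjusted p = 2.36e-07). It differed from Control in both groups and in opposite directions, by -1.44 in DOX (adjusted p = 0.00021) and 1.21 in Tb (adjusted p = 0.00158). Irs1, the insulin receptor substrate, stood at 43.8, 37.1, 30.8, 51.7 and 55.3 CPM in DOX and 8.5 to 16.7 CPM (median 11.9) in Tb (log2 fold change 1.85 ± 0.22, adjusted p = 2.09e-06), with Control at 9.49 to 14.4 CPM. Bmp6, a BMP ligand that also induces hepcidin, stood at 31.9, 36.7, 35.9, 28.6 and 30.2 CPM in DOX and 9.8 to 15.4 CPM (median 14.1) in Tb (log2 fold change 1.32 ± 0.16, adjusted p = 2.32e-06) and differed from Control by 0.46 in DOX (adjusted p = 0.032) and -0.86 in Tb (adjusted p = 0.00099). Cth, the enzyme that makes cysteine, stood at 5.38, 8.32, 3.75, 15.9 and 9.56 CPM in DOX and 1.31 to 2.71 CPM (median 1.8) in Tb (log2 fold change 2.22 ± 0.37, adjusted p = 0.000108). G6pdx, which feeds the pentose phosphate pathway and the phagocyte oxidase, stood at 8.74, 5.86, 12.6, 3.35 and 5.21 CPM in DOX and 15 to 61 CPM (median 33.2) in Tb (log2 fold change -2.35 ± 0.34, adjusted p = 1.84e-05).

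Energy-producing genes as lists gave few calls. Of 40 nuclear-encoded and 13 mitochondrially encoded respiratory chain genes none was called by edgeR with the fold limit. With the adjusted p alone 13 and 1 of them were higher in DOX and none in Tb, where 15.9% and 18.1% of all genes were. The list medians were 0.19 and 0.31. With library totals these medians were 0.01 and 0.13, where the median of all genes was -0.18. Glycolysis had 1 of 27 genes called, Slc16a3, a lactate exporter, at 1.41 to 1.74 CPM in DOX and 3.53 to 16.1 CPM in Tb (log2 fold change -2.53 ± 0.34, adjusted p = 9.57e-06). Pericyte and smooth muscle markers had 1 of 14 called, antioxidant genes 2 of 35, both higher in Tb, and integrated stress response genes 1 of 24 in each direction. Without Tb replicate 5 the last of these lists had 3 higher in DOX and 1 in Tb, and without DOX replicate 4 there were 3 antioxidant genes and 2 stress response genes higher in Tb. Iron and heme genes had 4 of 23 called, all higher in Tb, and 1 more in DOX without Tb replicate 5.

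The remaining lists gave few calls. Of 25 cell death and inflammasome genes 5 were higher in Tb, among them the cytokine Il1b, and 1 was higher in DOX, Bik, a BH3-only protein (log2 fold change 1.19 ± 0.27, adjusted p = 0.00175, and 0.98 without DOX replicate 4). Of that list 7 genes were higher in Tb and none in DOX without DOX replicate 4, and 5 and 2 without Tb replicate 5. Of 28 TGF-beta genes 4 were higher in Tb and 1 in DOX (2 and 1 without Tb replicate 5), and Tgfbi, a TGF-beta-induced matrix protein, was at 7.98 to 18 against 21.4 to 72.2 CPM with no overlap (log2 fold change -1.66 ± 0.29, adjusted p = 0.00014). Of 28 insulin and growth factor genes 3 were higher in Tb and 2 in DOX (3 and 4 without Tb replicate 5, and 2 and 2 without DOX replicate 4), the latter being Irs1 and Igfbp3, a carrier of IGF (log2 fold change 1.47 ± 0.36, adjusted p = 0.00349). Of 5 platelet genes 2 were higher in Tb and 1 in DOX, Gp1ba, which was not called with library totals. Gp1ba also fell under the fold limit without DOX replicate 3 (0.80), Tb replicate 3 (0.96) or Tb replicate 4 (0.998). Of 6 adipocyte genes 1 was higher in DOX and none without DOX replicate 4. Of 3 Schwann cell and neuronal genes 1 was higher in Tb, Dbh, dopamine beta-hydroxylase of sympathetic nerves (log2 fold change -1.35 ± 0.39, adjusted p = 0.0105). By edgeR no call was made among 6 skeletal muscle genes, 4 sex-linked genes, 1 epithelial gene and 1 germ cell gene that reached the minimum, and 1 skeletal muscle gene was higher in DOX without Tb replicate 5 or without DOX replicate 4. With an adjusted p under 0.05 alone, 1 skeletal muscle gene and the germ cell gene were higher in DOX.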

How the data were processed

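The authors deposited whole-number gene counts and FPKM values for 21 mouse heart libraries. The submitters' processing notes name cutadapt, FastQC, HISAT2, HTSeq 0.6.1, DESeq2 1.34.0 and GRCm39, and strandedness is not given in the sources used here. Counting without strand mixes overlapping genes, and near-identical genes share reads.

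From these counts, 1 model over all 21 libraries with 1 term per group was fitted with edgeR 4.0.16 (R 4.3.3, TMM scaling, quasi-likelihood F test), and DOX minus Tb was tested on the genes that averaged 0.5 FPKM or more in the 11 libraries. Adjusted p is Benjamini-Hochberg over all 13928 genes, errors of log2 fold changes are standard errors, and called means an adjusted p under 0.05 with a log2 fold change of 1 or more in size. Totals ran from 14008573 to 18601445 counts, so genes of a few counts per library carry wide counting error. The script was tested on simulated data.

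Genes named were, per direction, the 10 largest called folds with no overlap and a mean of at least 2 FPKM, the up to 4 called members of each list with the smallest p plus the most abundant member, and Nppa, Nppb, Myh6, Myh7, Ckm, Mfap4, Itgb6 and Ucp3. Others are said to be named after their values were seen, and 2 genes are not reported here. The members and lists were chosen with earlier results of these data known. Alternatives covered scaling, filters, DESeq2 1.42.0, limma 3.58.1 on log2(FPKM + 0.1) and log2(FPKM + 1), library weights, a replicate block and leaving out each library.

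Same-numbered libraries of different groups had residual correlations of -0.276 to 0.245, so the numbers were not taken to pair them. Libraries of a group differed beyond counting noise (chi-square per degree of freedom at least 5.70). Promoters and miRNAs are from RefSeq (GRCm38.p6) and gene types from GENCODE M21.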

Additional observations from a re-analysis of the deposited data

Results flagged for a closer look

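A test for a single extreme value was run on 332 pairs of a gene or summed level with a group. In 29 of them a library lay far from the rest of its group. For 1 pair chosen beforehand chance gives about 1 in 20. Some of these genes were named after their values were seen, and genes can move together in 1 library, so the count is not set against that rate. The values are CPM, and the range of the other libraries of the group follows each.

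Tb replicate 5 was the highest of its group for 6 genes. These were Il6 at 98.3 (0.262 to 0.911), Nppb at 987 (76.5 to 176), the clock gene Per1 at 142 (32.7 to 50.3), Cd3e at 42.2 (0.86 to 1.73), the activin subunit Inhbb at 37.7 (1.77 to 4.56) and Rrm2 at 10.2 (1.36 to 2.58). It was the lowest for Oas2 at 7.88 (14.8 to 18.1) and the growth factor Igf1 at 5.91 (12.4 to 19.2).

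DOX replicate 4 was the highest of its group for 5 genes. Cd3e, a CD3 chain that associates with the T cell receptor, stood at 308 (4.44 to 14). With it 3 interferon-inducible GTPases stood apart, Irgm1 at 199 (19.6 to 27.9), Igtp at 238 (5.09 to 9.71) and Iigp1 at 758 (23.6 to 40.9). The fifth was Trim63 at 1576 (235 to 268). The B cell kinase Blk was lowest there at 1.28 (3.36 to 4.32).

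Tb replicate 6 held the highest Myh7, 3049 (629.9 to 885), with the lowest Myh6, 14690 (19610 to 21650), and the lowest Vcam1, 21.7 (27.2 to 30.8). The other Tb libraries gave Ly6g at 3.99 in replicate 1 (11.3 to 16.7), Myl7 at 27.1 in replicate 2 (9.86 to 12.7) and the serpin Serpina3g at 1.11 in replicate 3 (2.12 to 2.75).

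In DOX replicate 1, Mfap4 stood at 5.38 (1.19 to 1.44) and Cav1 at 258 (163 to 183). In DOX replicate 2, the beta globin Hbb-bt stood at 4.7 (0.134 to 0.239) and Fos at 3.0 (1.5 to 1.75). DOX replicate 3 had the only Ly6g count of the group, 0.0659, together with a high Dcxr at 10.5 (6.48 to 7.26), a low Sbk3 at 4.28 (9.4 to 12.2) and a low Kcnv2 at 0.395 (2.62 to 4.71). In DOX replicate 5, Myl7 was at 0 (19.8 to 50.0).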

How the results depend on the processing

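More genes were higher in Tb than in DOX under every alternative run. Against 1416 called genes (412 higher in DOX and 1004 in Tb), no FPKM minimum gave 2212 (690 and 1522), a mean of at least 5 FPKM gave 356 (95 and 261), limma on log2(FPKM + 1) gave 670 (123 and 547), limma on log2(FPKM + 0.1) gave 273 higher in DOX, and no minimum fold change gave 4732 (2217 and 2515). More or fewer genes tested and a dropped threshold account for the moves with other minimums by construction, and for both limma fits the cause was not tested. Leaving out 1 library gave 1299 to 1571 called genes, 285 to 560 higher in DOX, the ends being without DOX replicate 4 and without Tb replicate 5, and 953 to 1069 higher in Tb. Without both libraries, a setting chosen after seeing the data, there were 1453 (458 and 995). The values with a replicate block, 1359 called (403 and 956), are given for completeness, since same-numbered DOX and Tb libraries had residual correlations of -0.148 to 0.186, below 0 for numbers 3, 4 and 5, so not every library correlated best with its own number.

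Of 160 called genes named or tabulated, 109 were called under every alternative and 51 were lost under 1 or more, 13 of them in a fit of only the 11 DOX and Tb libraries, 9 with library totals and 38 with limma on log2(FPKM + 1). The direction reversed for Iigp1 (-0.24 with library weights, -0.39 to 2.36 when 1 library was left out, the lowest without DOX replicate 4, -0.54 without both libraries) and for Igtp (-0.12 with library weights, -0.60 to 2.57 when 1 library was left out, the lowest without DOX replicate 4, and -0.49 without both). List medians stayed within 1 SD of the reported value in 220 of 243 alternatives, and list counts stayed within 1.5 times the reported count in 166 of 200. With library totals the counts higher in Tb went from 5 to 9 for cell death genes, from 1 to 3 for endothelial markers and from 1 to 3 for integrated stress response genes, and those of clock genes from 4 in DOX and none in Tb to 2 and 1. Depth limits what can be read for genes near 0 in DOX, such as Mpo, where only a bound could be given.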
